A study of Mus musculus with 8 samples.

Results

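The receptors described here are 9 genes through which circulating hormones can act on the lacrimal gland (LG), the exocrine gland that makes the watery part of the tear film. They are the growth hormone receptor Ghr, the prolactin receptor Prlr, the thyroid hormone receptors Thra and Thrb, the retinoid X receptor Rxra, the glucocorticoid receptor Nr3c1, the mineralocorticoid receptor Nr3c2, the progesterone receptor Pgr and the oestrogen receptor Esr1. They were taken by gene symbol, and all 9 were found among the 24552 genes of the count table. Of these 9, 8 were counted often enough for the test across genes, and Esr1 was not. RNA came from exorbital LGs of female C57BL/6J mice, 4 fed ad libitum (AL) and 4 on 40% calorie restriction (CR). The mice entered the study 6 to 7 months old, stayed on their diet for 4 months and were 10 to 11 months old when the LGs were taken. The CR mice were given their food once a day in the late afternoon, and no genetic modification is named. The study fed more than 1 cohort, in one of which the CR chow held extra vitamins and micronutrients, and the cohort behind these libraries is not given in the sources used here. Samples are named by diet and replicate number (AL1 to AL4, CR1 to CR4). The comparison asks how CR changes gene expression in the LG.

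Ghr and Prlr are cytokine-type receptors of the cell surface, which have no enzyme of their own and signal through the kinase JAK2 and the STAT5 transcription factors. The other 7 are nuclear receptors, proteins that bind their hormone inside the cell and then regulate genes directly. Steroid receptors wait in a complex with heat shock proteins until hormone arrives, while thyroid hormone receptors sit on DNA with Rxra as their partner and hold corepressors when no hormone is bound. The LG is known as a hormone-responsive gland: sex steroids, prolactin, thyroid hormone and glucocorticoids all bear on its structure and secretion.

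The libraries were made from the 3′ ends of transcripts, so a gene's count reflects transcripts and not their length, and forms of 1 gene are summed. Between 12051881 and 22156511 reads were counted on genes in the AL libraries and between 13720079 and 19310319 in the CR libraries. Levels are given as CPM, counts put on 1 common library size with relative log expression (RLE) factors. A count of 3, taken as the floor, is worth 0.152 to 0.231 CPM in these libraries. The summed level of 11 markers of lacrimal secretion was high in each library, from 227400 to 303600 CPM in AL and from 90330 to 239200 CPM in CR. Obp1a alone was at 59030 to 163200 CPM. Single markers differed: Scgb2b7 was at 111.4 to 1204 CPM in AL and at 0 in CR1 and CR3. Mup5 had a mean of 15.43 CPM in AL and 2209 CPM in CR. Of the 11 markers 3 were called lower in CR and 1 higher (0.785% and 1.20% of all genes). Transcripts of 8 genes abundant in the parotid gland, a salivary gland, summed to between 12030 and 41320 CPM in AL and to between 54590 and 299700 CPM in CR. CR4 stood apart from the other CR libraries, with the highest lacrimal sum (239200 CPM, against at most 119300 CPM) and the lowest parotid sum (54590 CPM, against at least 243400 CPM). Calls that change without CR4 are therefore given both ways.

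On GRCm38 (mm10), with the GENCODE vM21 annotation, Ghr (chr15:3317760-3583492, minus strand) and Prlr (chr15:10177238-10349180, plus strand) lie on the same chromosome. Thra is at chr11:98740638-98769006, Thrb at chr14:17660261-18038090, Rxra at chr2:27676440-27762957, Nr3c2 at chr8:76899442-77245012, Pgr at chr9:8899833-8968611 and Esr1 at chr10:4611593-5005614, all on the plus strand. Coding transcripts of these genes end at more than 1 place: the annotation gives 6 separate 3′ ends each for Nr3c1, Prlr and Thrb, 5 for Nr3c2, 4 each for Esr1, Ghr, Thra and Rxra and 2 for Pgr. Exons of 3 receptors overlap exons of another gene. The last exon of Thra shares 263 bases (chr11:98768157-98768419) with Nr1d1, which is read from the opposite strand and encodes the clock repressor REV-ERBα, and 1 of the 4 Thra ends falls inside that stretch. Nr3c2 shares 247 exon bases with Gm10649, a noncoding RNA on the opposite strand, and Prlr shares 203 with Gm21973 on its own strand, in both cases away from every annotated 3′ end of the receptor. Gm10649 had between 0 and 12 counts per library, and Gm21973 has no row in the table. Whether reads were assigned by strand is not given in the sources used here, so reads of Thra and Nr1d1 from the shared bases cannot be told apart.

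Start regions of the surface receptors are shown because Ghr and Prlr had the smallest p-values among the 9 genes and differed in opposite directions. RefSeq's promoter table for GRCm38.p6 holds 13 windows for 7 of the 9 receptors, and the 250 bases before a start were read on the gene's own strand, 5′ to 3′. The windows shown overlap no annotated exon. A further Ghr window, of which 140 bases are exon, and a downstream Prlr window without exon bases (chr15:10293401-10293650) are not printed. Capitals mark matches to a STAT site (TTCNNNGAA) or to a steroid receptor half-site (AGAACA or its reverse complement), each searched on both strands.
Ghr, chr15:3581843-3582092, minus strand: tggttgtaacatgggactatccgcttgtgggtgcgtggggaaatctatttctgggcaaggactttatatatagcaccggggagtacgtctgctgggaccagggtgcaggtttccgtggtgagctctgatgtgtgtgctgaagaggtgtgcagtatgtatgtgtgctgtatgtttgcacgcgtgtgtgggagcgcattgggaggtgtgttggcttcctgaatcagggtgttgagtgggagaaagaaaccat
Prlr, upstream start, chr15:10176988-10177237, plus strand: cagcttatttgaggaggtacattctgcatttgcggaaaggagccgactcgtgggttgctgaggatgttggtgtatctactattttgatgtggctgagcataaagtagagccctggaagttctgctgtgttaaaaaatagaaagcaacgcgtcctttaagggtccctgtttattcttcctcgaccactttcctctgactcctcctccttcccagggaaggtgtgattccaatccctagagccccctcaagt
Prlr, internal start, chr15:10223656-10223905, plus strand: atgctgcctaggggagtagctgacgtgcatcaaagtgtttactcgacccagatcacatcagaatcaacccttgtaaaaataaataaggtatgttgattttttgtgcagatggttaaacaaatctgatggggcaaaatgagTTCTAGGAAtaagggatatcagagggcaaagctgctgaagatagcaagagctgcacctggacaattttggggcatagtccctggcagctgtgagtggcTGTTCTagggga
The internal Prlr window holds 1 STAT match and 1 steroid half-site match, and the Ghr window and the upstream Prlr window hold neither. STAT matches occur in 7.02% of all 32851 windows of this length and steroid half-sites in 16.1%. The windows printed also hold no E-box (CACGTG, in 6.02% of all windows), no D-box (TTATGTAA, 0.819%) and no nuclear receptor half-site (AGGTCA, 14.0%). The GC content was 52.0% in the Ghr window, 48.0% in the upstream Prlr window and 44.8% in the internal one, against a median of 52.4% over all windows. The downstream Prlr window holds 1 D-box match and none of the other motifs, and the further Ghr window holds none of the 5. A match is a run of letters and not a measured binding site.

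Between the diets, 0 of the 8 receptor genes tested passed in edgeR's quasi-likelihood test, where a gene was called if it met the study's thresholds for the adjusted p (under 0.05) and for the fold change (1.5 or more). Of all 11211 genes tested, 1.98% passed. At an unadjusted p under 0.05 the test counted 1 of the 8, Ghr, against 16.7% of all genes. The AL and CR libraries overlapped in each of the 9 receptors, whereas in 9.79% of all genes tested they did not, with CR above AL in 4.58% and below in 5.20%. The log2 fold changes, CR minus AL, ran from -1.30 for Nr3c2 to 0.86 for Ghr with a median of -0.12, beside a median of 0.01 over all genes. DESeq2 and limma voom also called 0 of the 8, and Ghr came nearest, with an adjusted p of 0.0563 in DESeq2 and 0.0588 in voom.

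**Figure D1:**
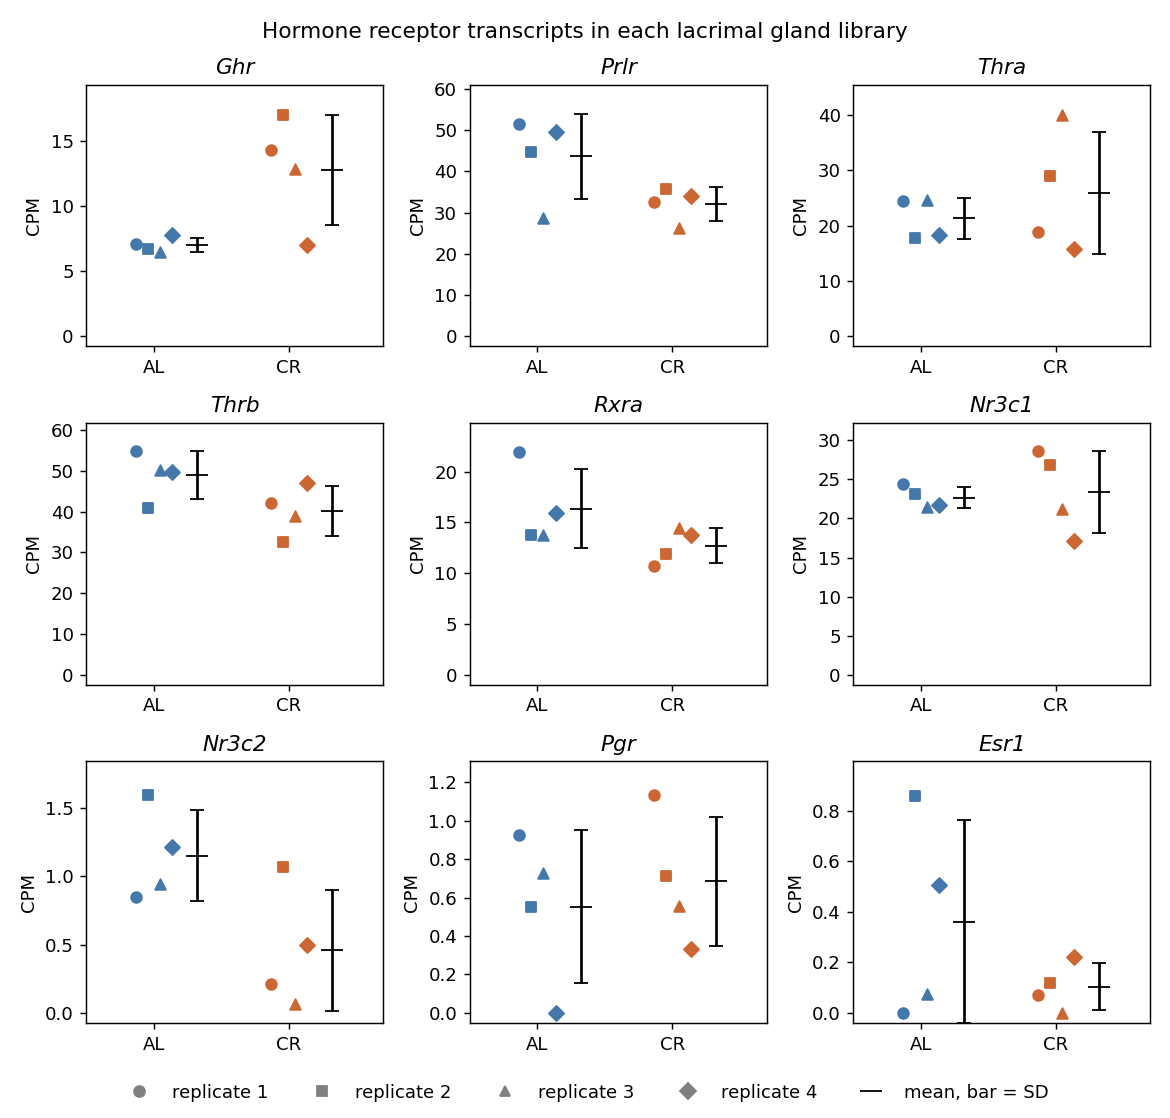
Level of each hormone receptor transcript in CPM (vertical axes, linear, each with its own scale) in the 4 AL (blue) and 4 CR (orange) libraries, with the mean and its SD beside the points and the symbol giving the replicate number. The groups overlap in every panel, and in the Ghr panel CR4 (7.00 CPM) lies among the AL libraries while the other CR libraries lie above 12 CPM.

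Ghr, which makes liver and other tissues respond to growth hormone and from which a shorter, hormone-binding form is also made, had the lowest p of the receptors. It was counted at 7.09, 6.69, 6.49 and 7.76 CPM in AL1 to AL4 and at 14.3, 17.0, 12.8 and 7.00 CPM in CR1 to CR4. The AL libraries were tightly grouped, 3 CR libraries lay above all of them, and CR4 lay inside their range. The mean was 7.01 ± 0.564 CPM (SD, n = 4) in AL and 12.8 ± 4.22 CPM (SD, n = 4) in CR, a fold change of 1.82. The log2 fold change was 0.86 (SE 0.26, 95% interval 0.30 to 1.43), and the adjusted p from edgeR was 0.1115. Without CR4 the log2 fold change was 1.07 and Ghr passed both thresholds (edgeR adjusted p = 0.00962). Without both AL4 and CR4 it was 1.12 (edgeR adjusted p = 0.0148). Over all settings tried the adjusted p of Ghr ran from 0.00962 to 0.8293.

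White adipose tissue, in which Ghr is known to be abundant, and the parotid gland were checked by their markers in the same libraries. The 9 adipose markers summed to 24.6, 18.0, 14.2 and 18.7 CPM in AL1 to AL4 and to 62.7, 66.7, 108.7 and 29.1 CPM in CR1 to CR4, so that CR4 was again the CR library nearest to AL. Of these markers 6 were tested and 1, Fabp4, was called higher in CR (1.20% of all genes), while Plin1, Lep and Pck1 were counted too rarely for that test. A parotid score was computed by averaging log2(CPM + 0.5) over the 8 parotid markers. It was 7.90, 6.60, 6.77 and 3.33 in AL1 to AL4 and 12.0, 13.1, 10.5 and 9.66 in CR1 to CR4. Fitted with this score as a covariate, Ghr had a log2 fold change of 0.39 (edgeR adjusted p = 0.8293). The scores of the diets do not overlap, so the covariate takes up part of the difference between diets, and the test then called 3 of all 11211 genes. In whole glands, fewer cells of a type and less RNA per cell cannot be told apart. The part of the adipose transcripts in the Ghr values was not tested.

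Prlr, the receptor for prolactin, was counted at 51.6, 44.8, 28.6 and 49.6 CPM in AL1 to AL4 and at 32.7, 35.6, 26.3 and 34.0 CPM in CR1 to CR4. In AL, 3 libraries lay above all CR libraries, and AL3 lay inside the CR range. The mean was 43.6 ± 10.4 CPM (SD, n = 4) in AL and 32.2 ± 4.09 CPM (SD, n = 4) in CR. The log2 fold change was -0.44 (SE 0.20, 95% interval -0.88 to 0.0006), with an edgeR adjusted p of 0.2996, and it kept its sign in each of 20 alternatives (-0.60 to -0.35). AL3 also had the highest macrophage markers, 215.3 CPM for 6 genes against at most 95.1 CPM in the other AL libraries. Without AL3 the log2 fold change of Prlr was -0.60 (edgeR adjusted p = 0.146).

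The ratio of raw Ghr to Prlr counts within a library does not depend on how libraries are scaled. It was 0.138, 0.149, 0.227 and 0.157 in AL1 to AL4 and 0.437, 0.477, 0.487 and 0.206 in CR1 to CR4. The 3 CR libraries other than CR4 had ratios above those of all AL libraries, and CR4 lay below AL3. With 0.5 added to each count, the mean log2 ratio was -2.60 ± 0.32 in AL and -1.39 ± 0.59 in CR (SD, n = 4 each), a difference of 1.21 (exact permutation test, two-sided, p = 0.0571, and 0.0857 after Benjamini-Hochberg adjustment over the 3 receptor pairs examined). Such a test of 4 against 4 cannot give a p below 0.0286, so after adjustment over the 3 pairs 1 pair alone cannot fall under 0.05. Without CR4 the difference was 1.502 (exact permutation test, adjusted p = 0.0571).

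**Figure D2:**
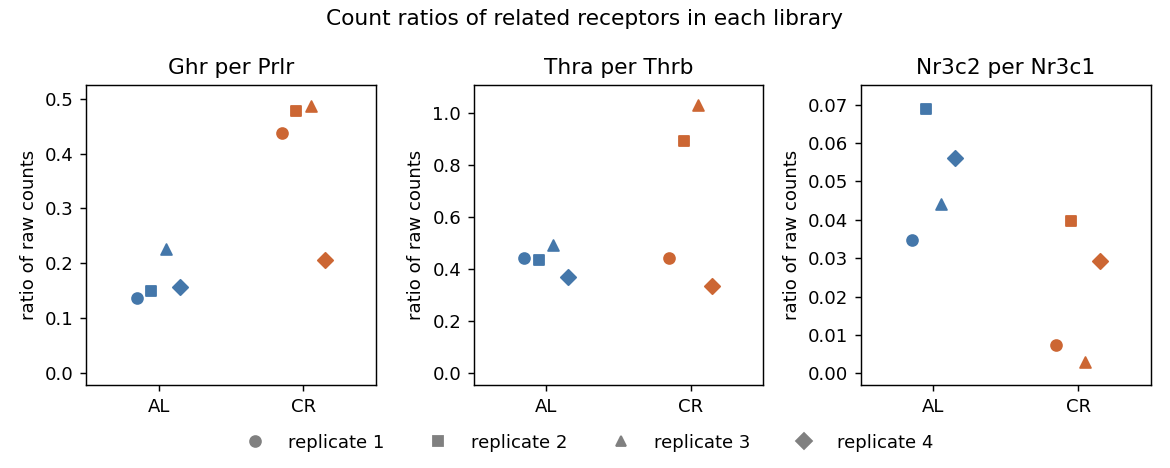
Ratio of raw counts (vertical axes, linear) of Ghr to Prlr, Thra to Thrb and Nr3c2 to Nr3c1 in each AL (blue) and CR (orange) library, with symbols for the replicate number. In CR1, CR2 and CR3 the Ghr to Prlr ratio lies at 0.437 to 0.487, above all AL libraries, and in all 3 panels the diets overlap.

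Below Ghr and Prlr lies a pathway of kinases, STAT factors and feedback inhibitors, of which 14 of 17 listed genes were tested. One gene, Ptpn6, was called lower in CR and 0 were called higher, with a median log2 fold change of 0.07. Of all genes tested 0.785% were called lower and 1.20% higher. Ptpn6, which encodes the phosphatase SHP-1 and is known mainly from blood cells, went from 12.2 ± 2.67 to 5.77 ± 1.64 CPM (SD, n = 4 each; log2 fold change -1.08, edgeR adjusted p = 0.0498). It was called in 1 of the 8 fits that each left out 1 library, the one without CR4. The 6 macrophage markers had log2 fold changes from -1.21 to -0.43 and none was called. An unadjusted p under 0.05 in edgeR was found for 5, all lower, against 16.7% of all genes in either direction. The macrophage markers summed to 70.7 to 215.3 CPM in AL and 43.8 to 86.4 CPM in CR. Markers of B and plasma cells summed to 12.5 to 37.2 CPM in AL and 6.07 to 12.6 CPM in CR, and those of T cells to 1.62 to 8.53 CPM and 0.778 to 1.72 CPM. Among them Ms4a1 (B cells) and Cd3d (T cells) were lower in all CR libraries than in any AL library. Both were too rare for the test across genes (exact permutation p = 0.0286 each, 0.32 after adjustment over 56 rarely counted genes). With 4 against 4 libraries 0.0286 is the lowest p this test can give. A few genes at that limit cannot reach an adjusted p under 0.05 over 56 genes. The study reports both genes as downregulated by CR. The part of macrophages, B cells and T cells in the Ptpn6 values was not tested. Socs2, the growth hormone-induced inhibitor of the pathway, was counted at 10.1, 15.3, 18.3 and 12.5 CPM in AL1 to AL4 and at 28.6, 31.9, 41.5 and 15.2 CPM in CR1 to CR4. As for Ghr, CR1 to CR3 lay above all AL libraries and CR4 did not. Its log2 fold change was 1.06 (SE 0.29, edgeR adjusted p = 0.0810), and it was called without CR4. Ptpn1, a phosphatase that acts on JAK2, had a log2 fold change of 0.43 (edgeR adjusted p = 0.311).

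Thra and Thrb encode the 2 thyroid hormone receptors, and Thra also gives a form that binds no hormone, whose 3′ end is the one that overlaps Nr1d1. Thra was counted at 24.4, 17.8, 24.6 and 18.3 CPM in AL1 to AL4 and at 18.8, 28.9, 40.0 and 15.7 CPM in CR1 to CR4. The CR libraries spread on both sides of the AL range, from the lowest to the highest of all 8. The mean was 21.3 ± 3.76 CPM in AL and 25.8 ± 11.0 CPM in CR (SD, n = 4 each; log2 fold change 0.28, 95% interval -0.31 to 0.88, edgeR adjusted p = 0.678), and without CR3 the log2 fold change was -0.0036. Nr1d1, on the other strand, was counted at 5.63, 9.63, 6.19 and 14.2 CPM in AL1 to AL4 and at 11.7, 28.5, 17.9 and 11.2 CPM in CR1 to CR4 (log2 fold change 0.95, edgeR adjusted p = 0.190). The CR libraries highest in Nr1d1, CR2 and CR3, were also the highest in Thra. How far reads from the shared 263 bases carry this was not tested.

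Thrb was counted at 54.9, 40.9, 50.1 and 49.6 CPM in AL1 to AL4 and at 42.2, 32.5, 38.8 and 46.9 CPM in CR1 to CR4. AL2 lay within the CR range, and the other AL libraries lay above all CR libraries. The mean was 48.9 ± 5.86 CPM in AL and 40.1 ± 6.08 CPM in CR (SD, n = 4 each; log2 fold change -0.29, 95% interval -0.66 to 0.09, edgeR adjusted p = 0.447). The ratio of Thra to Thrb counts was 0.445, 0.435, 0.492 and 0.368 in AL1 to AL4 and 0.445, 0.891, 1.03 and 0.335 in CR1 to CR4. Only CR2 and CR3 lay outside the AL range on the upper side, and CR4 was the lowest library (difference in mean log2 ratio 0.49, exact permutation p = 0.343, also after adjustment over the 3 pairs). Without CR4 the difference was 0.78 and without CR3 it was 0.24 (exact permutation test, adjusted p = 0.0571 and 0.714).

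Of 15 genes of thyroid hormone transport, activation and response, 8 were tested, 1 was called lower in CR (0.785% of all genes) and 0 higher (median log2 fold change 0.31). The gene called was Me1, the lipogenic malic enzyme, at 52.5 ± 10.9 CPM in AL and 25.9 ± 5.92 CPM in CR (SD, n = 4 each; log2 fold change -1.02, SE 0.21, edgeR adjusted p = 0.0335). All 4 CR libraries lay below all AL libraries, but Me1 was called in only 2 of the 8 fits that left out 1 library, those without AL3 or CR4. Thrsp, a lipogenic target of thyroid hormone that is abundant in adipose tissue, differed in the other direction, at 2.24 ± 1.01 CPM in AL and 8.04 ± 4.57 CPM in CR (log2 fold change 1.83, edgeR adjusted p = 0.0844). CR4, at 2.17 CPM, lay within its AL range. Slc16a10, which transports thyroid hormone and aromatic amino acids, was at 1.97 ± 0.564 CPM in AL and 0.556 ± 0.292 CPM in CR without overlap (log2 fold change -1.82, edgeR adjusted p = 0.0895).

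Rxra, the common partner of thyroid hormone, retinoic acid, vitamin D and lipid-sensing receptors, was counted at 21.96, 13.7, 13.8 and 15.9 CPM in AL1 to AL4 and at 10.7, 11.9, 14.5 and 13.7 CPM in CR1 to CR4. AL1 was the highest library, and AL2 and AL3 lay within the CR range. The mean was 16.4 ± 3.88 CPM in AL and 12.7 ± 1.73 CPM in CR (SD, n = 4 each; log2 fold change -0.36, 95% interval -0.81 to 0.08, edgeR adjusted p = 0.421). Without AL1 the log2 fold change was -0.18. Of 17 retinoid genes 7 were tested, 1 was called lower in CR (0.785% of all genes) and 0 higher (median log2 fold change -0.22). That gene, Crabp1, encodes a cytoplasmic retinoic acid carrier and was at 6.55, 6.44, 9.47 and 5.88 CPM in AL1 to AL4 and at 2.62, 2.07, 1.24 and 1.89 CPM in CR1 to CR4. The diets did not overlap, the log2 fold change was -1.86 (SE 0.31, edgeR adjusted p = 0.0113), and it was called in each of the 8 fits that left out 1 library. Crabp2, which encodes the related carrier and was too rare for this test, had 8, 1, 1 and 0 counts in AL1 to AL4 and 65, 138, 60 and 6 in CR1 to CR4. CR1 to CR3 lay above all AL libraries and CR4 did not (exact permutation p = 0.0571, 0.32 after adjustment over 56 rarely counted genes), and this gene was chosen after its values were seen. Dhrs3, a retinal reductase, had a log2 fold change of -0.54 without overlap and was not called (edgeR adjusted p = 0.279).

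**Figure D3:**
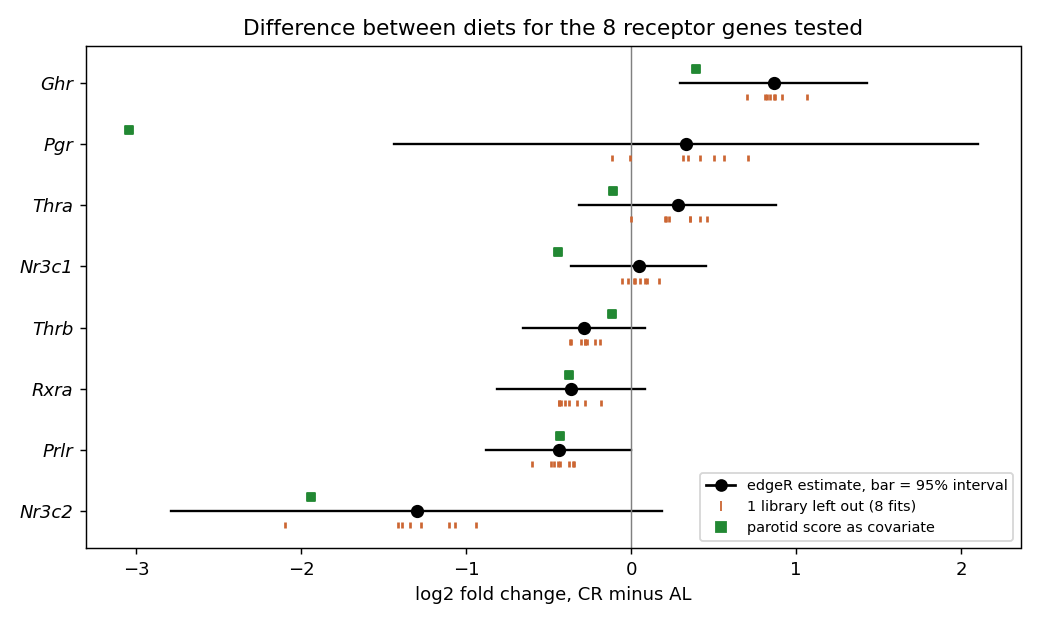
Log2 fold change, CR minus AL (horizontal axis), for the 8 receptor genes tested: the edgeR estimate with its 95% interval (black), the estimates with 1 library left out (orange ticks) and the estimate with the parotid score as a covariate (green squares). The interval of Ghr alone, 0.30 to 1.43, lies above 0, and the estimates of Pgr, Thra and Nr3c1 fall on both sides of 0.

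Nr3c1, through which corticosterone acts in nearly all cells, was the receptor with the smallest difference between diets. It was counted at 24.4, 23.1, 21.5 and 21.7 CPM in AL1 to AL4 and at 28.6, 26.8, 21.2 and 17.1 CPM in CR1 to CR4. The AL libraries lay inside the range of the CR libraries. The mean was 22.7 ± 1.33 CPM in AL and 23.4 ± 5.29 CPM in CR (SD, n = 4 each; log2 fold change 0.05, edgeR adjusted p = 0.945), and the 95% interval of -0.36 to 0.46 lies inside the 1.5-fold threshold in both directions. Nr3c2, which binds aldosterone and also corticosterone, was rare, with 11, 26, 13 and 24 counts in AL1 to AL4 and 3, 18, 1 and 9 in CR1 to CR4. In CPM these are 0.848, 1.60, 0.947 and 1.22 in AL and 0.212, 1.07, 0.0619 and 0.4998 in CR. CR2 lay within the AL range and the other CR libraries lay below it. The log2 fold change was -1.30 (SE 0.68, 95% interval -2.79 to 0.19, edgeR adjusted p = 0.378), an interval that at 1 to 26 counts per library holds both 0 and a large fall, and it ran from -2.10 to -0.94 when 1 library was left out. The ratio of Nr3c2 to Nr3c1 counts was 0.0348, 0.0690, 0.0441 and 0.0561 in AL1 to AL4 and 0.00743, 0.0397, 0.00292 and 0.0293 in CR1 to CR4. Again CR2 alone reached the AL range (difference in mean log2 ratio -1.78, exact permutation p = 0.0571, adjusted over the 3 pairs 0.0857). The single Nr3c2 count of CR3 lies below the floor of 3 counts, so its ratio is not a measured level. With that count raised to the floor the difference was -1.48, and without CR3 it was -1.20 (exact permutation test, adjusted p = 0.0857 in both).

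Of 14 genes that the glucocorticoid receptor is known to induce, 13 were tested, 1 was called higher in CR (1.20% of all genes) and 1 lower (0.785%), with a median log2 fold change of 0.51. Tsc22d3, which encodes the glucocorticoid-induced leucine zipper, was at 14.7, 18.2, 13.8 and 12.8 CPM in AL1 to AL4 and at 23.9, 32.1, 38.5 and 20.8 CPM in CR1 to CR4, without overlap (log2 fold change 0.95, SE 0.22, edgeR adjusted p = 0.0480). It was called in 1 of the 8 fits with 1 library left out, the one without CR4. Ddit4, an inhibitor of mTORC1 that glucocorticoids and stress induce, differed in the other direction, at 36.1 ± 3.53 CPM in AL and 13.4 ± 3.78 CPM in CR (SD, n = 4 each; log2 fold change -1.43, SE 0.21, edgeR adjusted p = 0.00697), and was called in each of those 8 fits. Per1, a clock gene with a glucocorticoid response element, had a log2 fold change of 0.82 without overlap and missed the threshold (edgeR adjusted p = 0.0546). Members of 1 list of targets were thus called in opposite directions.

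Of 11 genes that aldosterone is known to act on, most of them channels, pumps and regulators of sodium transport, 8 were tested, 3 were called higher in CR and 0 lower, with a median log2 fold change of 0.97, where 1.20% of all genes were called higher. The list counts Tsc22d3 again. Usp2, a deubiquitinase of the epithelial sodium channel that is also a clock-driven gene, was at 4.62, 6.99, 10.5 and 13.7 CPM in AL1 to AL4 and at 55.6, 62.7, 71.2 and 62.0 CPM in CR1 to CR4. Every CR library, CR4 included, lay far above every AL library (log2 fold change 2.81, SE 0.29, edgeR adjusted p = 0.00157). Usp2 was called in each of the 8 fits that left out 1 library, and it was the only pathway gene called with the parotid score as a covariate (log2 fold change 3.82, edgeR adjusted p = 0.0326). Atp1b1, a subunit of the sodium pump, was at 112.7, 88.1, 84.7 and 32.9 CPM in AL1 to AL4 and at 745.2, 611.7, 465.1 and 73.7 CPM in CR1 to CR4 (log2 fold change 2.57, edgeR adjusted p = 0.0431). CR4 and AL4 were the lowest libraries of their diets in Atp1b1 and also in the parotid score, and fitted with that covariate Atp1b1 had a log2 fold change of -0.02.

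Enzymes that make or inactivate steroids in tissues were mostly rare: 22 of 23 listed genes were in the table and 10 were tested. Of these 0 were called, against 1.98% of all genes, and the median log2 fold change was 0.05. In edgeR an unadjusted p under 0.05 was found for 1 that was higher and 1 that was lower, against 16.7% of all genes in either direction. Hsd11b1, which regenerates active corticosterone, was at 1.36 ± 1.22 CPM in AL and 2.85 ± 1.26 CPM in CR (log2 fold change 1.07, 95% interval -0.21 to 2.35, edgeR adjusted p = 0.406; 0.77 to 1.81 with 1 library left out). Akr1c18, which inactivates progesterone, was at 65.4, 51.6, 32.1 and 121.3 CPM in AL1 to AL4 and at 11.0, 13.9, 7.12 and 44.1 CPM in CR1 to CR4 (log2 fold change -1.83, SE 0.53, edgeR adjusted p = 0.104). It overlapped between diets through CR4 alone and was called without that library. Hsd17b7, an enzyme of oestradiol and cholesterol synthesis, had a log2 fold change of 1.19 (edgeR adjusted p = 0.273).

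Pgr and Esr1, the sex steroid receptors, were near the limit of detection in both diets. Pgr had 12, 9, 10 and 0 counts in AL1 to AL4 and 16, 12, 9 and 6 in CR1 to CR4, which is 0 to 0.925 CPM in AL and 0.333 to 1.13 CPM in CR. The ranges overlapped over most of their length, and the count of 0 in AL4 allows a level of up to 0.152 CPM. The log2 fold change was 0.33 (SE 0.81, 95% interval -1.44 to 2.10, edgeR adjusted p = 0.897), and it turned to -0.11 without AL4. Esr1 had 0, 14, 1 and 10 counts in AL1 to AL4 and 1, 2, 0 and 4 in CR1 to CR4, in all 25 and 7. Nearly all AL counts came from AL2 (0.859 CPM) and AL4 (0.507 CPM), and the other 6 libraries lay at or below 0.222 CPM. The mean was 0.360 ± 0.401 CPM in AL and 0.103 ± 0.0932 CPM in CR (SD, n = 4 each; exact permutation test, two-sided, p = 0.343, and 0.706 after adjustment over 56 rarely counted genes). Without a filter on low counts edgeR gave Esr1 a log2 fold change of -1.73 (95% interval -4.66 to 1.20, adjusted p = 0.585). The log2 ratio of the mean CPM was -1.81 and, without AL2, -0.91. At this depth no difference in Esr1 or Pgr was detectable, and the intervals hold large differences in both directions. The floors cover counting error only, since reads that carry no molecular identifier may repeat 1 molecule.

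Of 13 genes that oestrogen or progesterone receptors are known to induce, 9 were tested, 1 was called lower in CR and 0 higher (median log2 fold change -0.44, where 0.785% of all genes were called lower). Ccnd1, which encodes the cell cycle regulator cyclin D1 and answers to many growth signals, was at 51.6, 51.2, 36.7 and 57.8 CPM in AL1 to AL4 and at 14.5, 15.9, 18.7 and 21.0 CPM in CR1 to CR4. The diets lay far apart (log2 fold change -1.49, SE 0.19, edgeR adjusted p = 0.00409), and Ccnd1 was called in each of the 8 fits that left out 1 library. Ltf, which encodes the tear and milk protein lactoferrin and is also among the lacrimal markers, had a log2 fold change of -1.16 (edgeR adjusted p = 0.0811), and Cxcl12, a chemokine made by fibroblasts, one of -0.63 without overlap (edgeR adjusted p = 0.0988). Of 10 fibroblast markers 9 were tested and 0 were called, against 1.98% of all genes. An unadjusted p under 0.05 in edgeR was found for 3, all lower, against 16.7% of all genes in either direction. The fibroblast markers had a median log2 fold change of -0.67 and summed to 216.2 to 320.2 CPM in AL and 233.1 to 293 CPM in CR. Their part in the Cxcl12 values was not tested.

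Among 33 other hormone and nuclear receptors 21 were tested and 0 were called, against 1.98% of all genes. The log2 fold changes of those tested ran from -1.34 to 2.05 with a median of 0.39. At an unadjusted p under 0.05 in edgeR 7 were higher and 2 lower, against 16.7% of all genes in either direction. Vdr, the vitamin D receptor and a partner of Rxra, was at 1.54, 1.23, 0.947 and 2.23 CPM in AL1 to AL4 and at 3.89, 3.79, 4.64 and 2.28 CPM in CR1 to CR4. All CR libraries lay above the AL libraries, CR4 by little (log2 fold change 1.28, edgeR adjusted p = 0.110). Igf1r, the receptor for the growth factor that growth hormone induces, was at 53.8 ± 14.2 CPM in AL and 89.3 ± 19.6 CPM in CR (log2 fold change 0.73, edgeR adjusted p = 0.116). Lepr, the leptin receptor, was below 1 CPM in all AL libraries and in CR4 and at 1.72 to 2.12 CPM in the other CR libraries (log2 fold change 2.05, edgeR adjusted p = 0.188; 1.696 to 2.69 with 1 library left out).

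Proteins that work with the nuclear receptors gave 1 call. Of 20 coactivators and corepressors, all tested, Ppargc1a, a coactivator of thyroid hormone and oestrogen-related receptors in mitochondrial metabolism, was called higher (1.20% of all genes) and 0 lower (median log2 fold change 0.18). It was at 5.93, 3.31, 2.04 and 0.660 CPM in AL1 to AL4 and at 23.6, 32.1, 25.6 and 3.44 CPM in CR1 to CR4 (log2 fold change 2.85, edgeR adjusted p = 0.0497), and it was called in 1 of the 8 fits with 1 library left out, the one without CR4. Fitted with the parotid score, Ppargc1a had a log2 fold change of -0.30. The related Ppargc1b and the acetyltransferase Crebbp had log2 fold changes of 0.62 and 0.44 and were not called. Of 14 chaperones and immunophilins that hold steroid receptors, all tested, 0 were called, and their log2 fold changes ran from -0.43 to 0.95 with a median of -0.12. At an unadjusted p under 0.05 in edgeR 3 were higher and 1 was lower, against 16.7% of all genes in either direction, and 1.98% of all genes were called. The highest log2 fold change was that of Fkbp5, an immunophilin that lowers the hormone affinity of Nr3c1 and is itself a glucocorticoid target, at 17.9 ± 7.30 CPM in AL and 34.6 ± 10.3 CPM in CR (edgeR adjusted p = 0.132). The cochaperones Bag1 and Stub1 had log2 fold changes of 0.55 and 0.77 (edgeR adjusted p = 0.104 and 0.117).

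Over all 10 lists, and with genes of several lists counted once, 119 of 171 genes were tested and 9 were called, 7.56% against 1.98% of all genes, of which 4 were higher and 5 lower in CR. In 20 of the 119, or 16.8%, the diets did not overlap, against 9.79% of all genes. The lists were written with earlier results of these libraries known, so these shares are a description. Of the 9 genes called, Usp2, Ddit4, Ccnd1 and Crabp1 were called in each of the 8 fits with 1 library left out, Me1 was called in 2, and Ppargc1a, Atp1b1, Ptpn6 and Tsc22d3 only in the one without CR4. Over these fits the log2 fold change kept its sign, at 2.49 to 3.42 for Ppargc1a, 2.28 to 2.93 for Atp1b1, -1.28 to -0.92 for Ptpn6, 0.79 to 1.08 for Tsc22d3 and -1.19 to -0.93 for Me1. Of the other listed genes named here, 6 were called in the fit without CR4 and in no other of the 8. Their log2 fold changes without CR4 were 1.28 for Socs2, -2.67 for Akr1c18, 1.45 for Vdr, 0.96 for Stub1, 2.15 for Thrsp and -1.51 for Ltf (edgeR adjusted p from 0.00255 to 0.0476). With all libraries and the parotid score as a covariate they were 0.74, -0.18, 1.696, 0.26, 1.40 and -0.27 in the same order, none called. Per1 was called without CR1 and without CR4 (0.82 without CR4, edgeR adjusted p = 0.0424). With the parotid score as a covariate 1 of the 9, Usp2, was called. The log2 fold change with that covariate was -2.35 for Crabp1, -1.05 for Ptpn6, -1.09 for Ddit4, -1.04 for Ccnd1, 0.65 for Tsc22d3 and -0.55 for Me1, in each case with the same sign as without it, while those of Atp1b1 and Ppargc1a turned to -0.02 and -0.30. The edgeR adjusted p of these genes in that fit ran from 0.298 for Crabp1 to 0.9965 for Atp1b1. The parotid scores of the diets do not overlap, so the covariate takes up part of the difference between diets and these signs are uncertain.

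**Figure D4:**
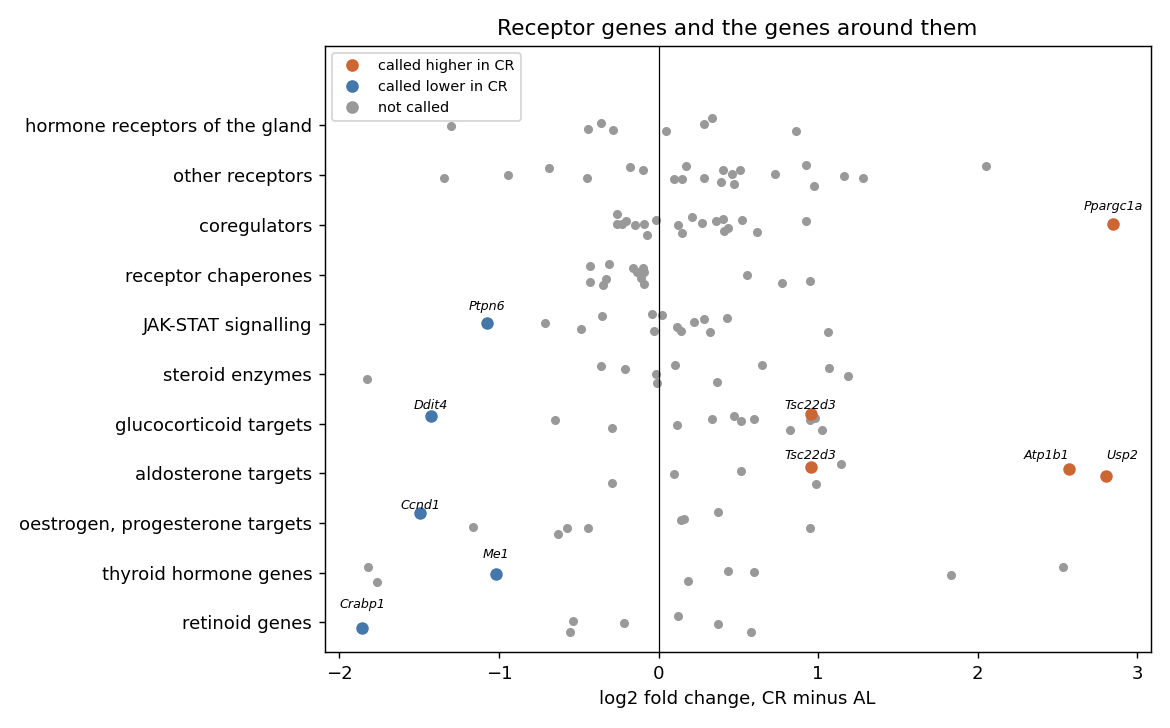
Log2 fold change, CR minus AL (horizontal axis), of each tested gene in the receptor list and in 10 lists of genes that work with the receptors or answer to them; orange and blue mark genes called higher and lower in CR, and grey marks the rest. The 8 receptors, from -1.30 to 0.86, are all grey. Tsc22d3, Sgk1 and Klf9 each appear in 2 lists and Fkbp5 in 3.

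The genes whose levels followed each receptor most closely over the 8 libraries were looked up as a description, by Pearson's correlation of log2(CPM + 0.5) among all genes tested; the libraries share diet, depth and tissue composition. For Ghr they were Homer2 (r = 0.984), Rap1gap (0.978) and Man1a (0.977). For Prlr they were Akr1e1 (0.970), Oit1 (0.954) and Snapc5 (0.948), and for Rxra Cln8 (0.966), Ctnnd2 (0.954) and Mctp1 (0.952). For Thra they were Eif2b2 (0.960), 1810058I24Rik (0.934) and Angptl4 (0.928), a list that does not hold Nr1d1, and for Thrb Dhx29 (0.974), Slc7a6 (0.971) and Tmem248 (0.968). For Nr3c1 they were BC052040 (0.960), Cyp46a1 (0.930) and Ctbp2 (0.930), and for the rarely counted Nr3c2 and Pgr they were Cbr4 (0.938) and Cep295 (0.973) first. No gene was among the first 3 of more than 1 receptor.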

How the data were processed

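RNA of whole LGs was measured in 8 libraries, 4 AL and 4 CR, grouped by the diet on their labels. Raw counts per gene were deposited, which the authors had made with cutadapt for trimming, STAR for alignment to mm10 and HTSeq for counting. They also deposited log2 values, made by dividing the counts by RLE size factors from DESeq2 and adding 1 before the logarithm. Recomputed values differed by at most 5.33e-14, and the log2 values were then set aside. The table lists 24557 genes, of which 5 repeated symbols were dropped. Of the rest, 16735 had a count and 11211 passed filterByExpr.

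CR was compared with AL in edgeR 4.0.16 (R 4.3.3) on the counts, scaled by RLE factors, using the quasi-likelihood F test. Adjustment over 11211 genes was by Benjamini-Hochberg. SE was taken as the log2 fold change over the root of F. The common biological coefficient of variation was 34.7%. Calls needed both of the study's thresholds (adjusted p under 0.05, fold change 1.5 or more). A two-sided exact permutation test of CPM served for rarely counted genes. The p-values weigh the difference between diets against the spread among the 4 libraries of each diet. The test was tried on simulated data first.

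Members and lists were chosen with earlier results of these data known. Genes named are the 9 receptors, genes whose exons overlap theirs, each called gene and the 3 with the smallest p in each of 10 lists, and the 3 genes most correlated with each receptor. A few marker genes and Crabp2 fall outside this rule and were named after their values were seen. A gene that this rule names is not reported here. The receptor ratios were added after the data had been examined, as was raising counts under the floor to it. Separate 3′ ends are more than 100 bases apart. The alternatives were TMM factors, library totals alone, DESeq2 1.42.0, limma 3.58.1 voom with quality weights, the replicate number as a block, no filter on low counts, a filter of at least 10 counts per library, no threshold on the fold change, each library left out, both replicates 4 left out, the parotid score as a covariate, leaving out the 50 most counted genes, and counts thinned to the smallest total. Pgr, Nr3c2 and Esr1 did not pass the filter of at least 10 counts. Reads, cornea and conjunctiva were not analysed here.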

Additional observations from a re-analysis of the deposited data

Results flagged for a closer look

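In 5 of 94 groups of 4 libraries, over the receptors, the genes that overlap them and the list and marker genes named in the text, 1 library lay far from the others by Dixon's test, where chance flags about 1 group in 20. No group of a receptor gene was among them. Ptpn6 was at 16.18 CPM in AL3 and between 10.4 and 11.33 CPM in the other AL libraries, and AL3 also held the highest macrophage markers. Slc16a10 was at 0.9903 CPM in CR1 and between 0.3553 and 0.4443 CPM in the other CR libraries. Plin1 was at 0.368 CPM in AL2 and 0 in the other AL libraries. Ms4a1 was at 0.3715 CPM in CR3 and between 0.1415 and 0.1776 CPM in the other CR libraries. Crabp2 was at 0.6164 CPM in AL1 and at most 0.07288 CPM in the other AL libraries.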

How the results depend on the processing

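The count of receptor genes called was 0 under 18 of 20 alternatives and 1, Ghr, without CR4 and without AL4 and CR4 together; leaving out 1 library gave 0 to 1. The log2 fold changes of Prlr, Thrb, Rxra, Nr3c2 and Ghr kept their sign under each alternative. Leaving out 1 library took Pgr from -0.11 to 0.71, Nr3c1 from -0.056 to 0.17 and Thra from -0.0036 to 0.46. Pgr turned to -0.11 without AL4, -0.0047 without CR1 and -3.05 with the parotid covariate; Nr3c1 turned to -0.056 without CR1, -0.0188 without CR2 and -0.44 with the covariate; Thra turned to -0.0036 without CR3 and -0.11 with the covariate. None of these passed the test, and the cause was not tested. The count ratio of Ghr to Prlr differed by 1.09 to 1.502 on the log2 scale when 1 library was left out, that of Thra to Thrb by 0.24 to 0.78, and that of Nr3c2 to Nr3c1 by -2.27 to -1.20. None had an adjusted p under 0.05 in the exact permutation test, which 1 pair alone could not reach. The log2 ratio of mean Esr1 levels ran from -2.51 to -0.91, the latter without AL2.

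The count of pathway genes called, 9, was 21 with DESeq2, 16 with voom, 17 without a filter on low counts, 1 with the parotid covariate, 22 without AL4 and CR4, and 4 to 21 when 1 library was left out (21 without CR4, 4 to 5 without any other). The cause was not tested. With the replicate number as a block 17 pathway genes and 0 receptors were called, and the log2 fold change of Ghr was 0.80 (edgeR adjusted p = 0.0799). Same-numbered libraries deviated together with correlations of 0.182, 0.0995, 0.278 and 0.507 for numbers 1 to 4. Since 1 of these is under 0.1, the numbers were not taken as pairs. Of the AL libraries 3 of 4 correlated best with the CR library of their own number, and of the CR libraries 2 of 4 with that AL library. Scaling shifted the median log2 fold change of all genes to 0.0109 with TMM and 0.0674 with totals alone. Depth limits Esr1, Pgr and Nr3c2, which had 0 to 26 counts per library. Strand assignment limits Thra and Nr1d1.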
